A study of Mus musculus with 12 samples.

Results

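The cytosolic ribosomal proteins are the protein parts of the ribosomes that translate nuclear-encoded messenger RNAs. Their transcripts were taken as all genes whose symbol is Rpl or Rps followed by digits and at most 1 further letter, with the stalk proteins Rplp0, Rplp1 and Rplp2 and with Rpsa, leaving out the Rps6k kinases and pseudogenes. Of 59 such genes on the array, 53 had at least 1 probe detected on at least 1 of 12 arrays, among 12822 genes detected in all. Rpl14, Rpl39l, Rpl6, Rps20, Rps23 and Rpsa had no detected probe and were not followed further. Each gene is represented by its probe of highest mean signal, and a probe counts as detected at a detection p-value under 0.05.

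The arrays held polyA RNA of whole retinas from mice at P10 (postnatal day 10) on the C57bl6/J strain. E168d2neo/d2neo mice are homozygous for a knock-in of a frameshift in Crx that truncates the protein in its transactivation region. R90Wneo/Wneo mice are homozygous for an amino acid substitution in the CRX homeodomain, and both lines keep a Neo selection cassette in an intron, which the study describes as lowering expression from the mutant allele compared with the lines from which it was removed. Crx-/- mice are the homozygous Crx knockout and WT mice carry the unmodified gene. Each genotype had 3 arrays, and each array held the pooled retinas of a male and a female mouse, so an SD describes the spread between pools.

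A ribosome has a large subunit, which holds the peptidyl transferase centre made of ribosomal RNA, and a small subunit, which decodes the messenger. Most ribosomal proteins are encoded by 1 active gene each and are made in nearly all cells, and their messengers often begin with a stretch of pyrimidines through which growth signalling adjusts their translation. A few genes have paralogs with narrow expression. Rpl3l is a close relative of Rpl3 that is known from striated muscle, where it can take the place of RPL3 in the large subunit. CRX is a homeodomain transcription factor of photoreceptors and pinealocytes, and photoreceptors are the most numerous cells of the mouse retina.

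Of the 53 members, 43 had at least 1 annotated start in the RefSeq promoter table of build GRCm38.p6, with 53 windows of 250 bases before to 50 bases after a start. A pyrimidine run of at least 8 bases within 10 bases of the start was found in 14 of these windows (26.4%), against 7.43% of all 32851 windows of the table. The stretches below, 15 bases on each side of the start, are shown because they carry this shared feature in large subunit, small subunit and stalk genes, with the pyrimidine run in capitals.
Rpl38, chr11:114668565-114668594, + strand: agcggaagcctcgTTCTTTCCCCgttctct
Rps9, chr7:3704026-3704055, + strand: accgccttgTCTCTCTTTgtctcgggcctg
Rps24, chr14:24490663-24490692, + strand: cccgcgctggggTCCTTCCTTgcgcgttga
Rpl35, chr2:39005117-39005146, - strand: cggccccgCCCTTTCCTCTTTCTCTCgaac
Rplp2, chr7:141447636-141447665, + strand: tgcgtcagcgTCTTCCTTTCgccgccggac
Rpl7a, chr2:26910792-26910821, + strand: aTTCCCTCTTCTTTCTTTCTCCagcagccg

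Rpl3l had 2 annotated starts, and neither had such a run. The 250 bases before its upstream start are shown because it is the member that changed most, with the first 15 transcribed bases in capitals.
Rpl3l, chr17:24727576-24727840, + strand: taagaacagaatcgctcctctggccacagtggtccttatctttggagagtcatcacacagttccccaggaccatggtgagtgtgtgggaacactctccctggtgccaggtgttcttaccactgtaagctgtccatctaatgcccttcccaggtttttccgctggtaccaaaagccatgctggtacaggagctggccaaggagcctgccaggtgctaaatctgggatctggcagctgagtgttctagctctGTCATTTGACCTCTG
The letters CCGGAAG, a form of the site bound by ETS factors, were in 20 member windows (37.7%) and 8.86% of all windows on either strand, and in 0 of the Rpl3l windows. The letters TAATCC, a core form of the CRX and OTX site, were in 2 member windows (3.77%, of Rpl9 and Rps9), in 7.06% of all windows and in 0 of the Rpl3l windows. TATAAA was in 5 member windows (9.43%) and in 13.6% of all windows. These matches are descriptions of the windows and no test was made of them.

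Mean signal per array was between 176 and 394 and 32.7% to 41.3% of probes were detected. E168d2neo/d2neo replicate 1 and WT replicate 1 were the dimmest arrays. The Crx probe was detected on every array, with a log2 signal of 12.83 to 13.04 in Crx-/- and 13.44 to 13.65 in WT, and where it lies relative to the deleted part is not given in the sources used here, so it does not check the labels. Arr3 (cone arrestin) set WT apart from each mutant. It averaged 4.52 ± 0.49 in E168d2neo/d2neo retinas, 7.70 ± 0.94 in R90Wneo/Wneo, 5.58 ± 0.61 in Crx-/- and 10.11 ± 0.14 in WT on the log2 scale (SD, n = 3 each). Between mutants, Arr3 differed only in E168d2neo/d2neo against R90Wneo/Wneo (adjusted p = 0.00765, limma). Crx-/- was not told apart from E168d2neo/d2neo (adjusted p = 0.421) or R90Wneo/Wneo (0.0778) by it. Of the 9 detected genes of the retina list, 5 fell in E168d2neo/d2neo retinas, 2 in R90Wneo/Wneo and 4 in Crx-/- relative to WT, and the others did not pass the test. Summed linear signal of the 4 detected lens genes, of which Cryaa was undetected on all WT arrays, differed widely between pools, from 155 to 69000 in E168d2neo/d2neo retinas, 83.2 to 14000 in R90Wneo/Wneo and 689 to 25600 in Crx-/-, against 231 to 870 in WT. Markers of pigment epithelium (4 detected), microglia (6), red cells (2) and proliferating cells (3) had 0 calls by limma in any mutant, with 2 pigment epithelium genes lower in R90Wneo/Wneo and 1 microglia gene lower in E168d2neo/d2neo at an unadjusted p under 0.05. The lens list also had 0 calls by limma, and 0 at an unadjusted p under 0.05. The part of lens or blood RNA in the values below was not tested.

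Rpl3l fell in all mutants. Its deposited signals were 26.4, 10.9 and 54.1 in E168d2neo/d2neo retinas, -7.87, 14.4 and 45.6 in R90Wneo/Wneo, 0.484, -1.20 and 0.999 in Crx-/-, and 199, 255 and 172 in WT, in arbitrary units. The probe was detected on all 3 WT arrays, on E168d2neo/d2neo replicates 1 and 3, on R90Wneo/Wneo replicate 3, and on no Crx-/- array. After quantile normalization its log2 signals were 5.22, 4 and 5.32 in E168d2neo/d2neo retinas, 4, 4.15 and 5.56 in R90Wneo/Wneo and 4 on all Crx-/- arrays, against 8.58, 8.03 and 7.84 in WT, where 4 is the floor set at a signal of 16. Every WT array was above every mutant array, with no overlap.

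On this scale Rpl3l changed in E168d2neo/d2neo by -3.30 ± 0.43 relative to WT (SE; adjusted p = 0.000939, limma). R90Wneo/Wneo retinas had a change of -3.58 ± 0.43 with an adjusted p of 0.00328 by limma. For Crx-/- retinas the fitted change was -4.15 ± 0.43 with an adjusted p of 0.000259 by limma. Because the probe was undetected on all Crx-/- arrays, the change there is a bound. With the WT mean set against the dimmest detected signal of each Crx-/- array, Rpl3l was at least 10.7-fold lower in Crx-/-. This bound makes no allowance for the spread of the WT arrays. In E168d2neo/d2neo and R90Wneo/Wneo the fitted changes include arrays at the floor, and the size of every fitted change depends on it. With the floor at 64 the change was -2.15 in each mutant, still past the test (adjusted p from 0.000123 to 0.000362, limma). The R90Wneo/Wneo call was lost when only its own and the WT arrays were fitted (adjusted p = 0.0763) and with significance analysis of microarrays, the test named in the methods (false discovery rate 0.0567). In bulk RNA, fewer cells that make a transcript and less of it per cell cannot be told apart.

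The levels of Rpl3l could not be put in order among the mutants. The probe was detected on 2 of 3 E168d2neo/d2neo arrays, 1 of 3 R90Wneo/Wneo arrays and 0 of 3 Crx-/- arrays, and differences between mutants depend on where the floor is set. Limma called none of the 3 differences (adjusted p from 0.541 to 0.918).

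Rpl3, the widely expressed counterpart, encodes a large subunit protein that reaches towards the peptidyl transferase centre, and its change did not pass the test in any mutant. Its log2 signals were 13.32, 13.69 and 13.71 in E168d2neo/d2neo retinas, 13.54, 13.35 and 13.39 in R90Wneo/Wneo and 13.64, 13.59 and 13.42 in Crx-/-, against 13.42, 13.14 and 13.23 in WT. E168d2neo/d2neo and R90Wneo/Wneo overlapped WT, and the lowest Crx-/- array equalled the highest WT array. Relative to WT, Rpl3 was at 0.31 in E168d2neo/d2neo retinas (95% interval -0.03 to 0.66), at 0.16 in R90Wneo/Wneo (-0.18 to 0.51) and at 0.29 in Crx-/- (-0.06 to 0.64), with adjusted p of 0.284, 0.766 and 0.327 by limma.

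**Figure D1:**
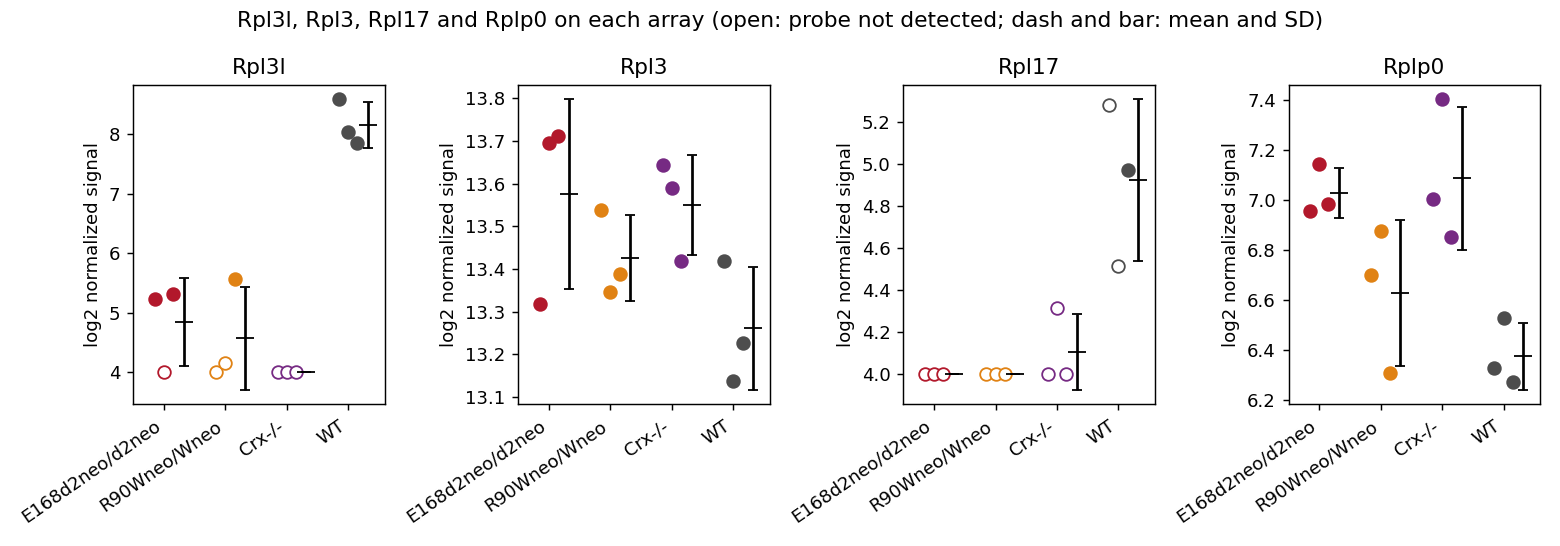
Log2 normalized signal of Rpl3l, Rpl3, Rpl17 and Rplp0 on each of the 12 arrays, by genotype, with open points where the probe was not detected and the mean and SD of 3 arrays beside the points. WT arrays lie at 7.84 to 8.58 for Rpl3l and all mutant arrays at 5.56 or below, Rpl3 overlaps between genotypes, and Rpl17 is open on 11 arrays.

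Muscle marker lists were examined because Rpl3l is a muscle paralog. Of 12 skeletal muscle genes 7 were detected and of 7 heart muscle genes 4, and limma called 0 of them in any mutant against WT. At an unadjusted p under 0.05, 1 skeletal muscle gene was lower in E168d2neo/d2neo and 1 in Crx-/-, and 1 heart muscle gene was lower in Crx-/-. The summed signal of the skeletal muscle genes was 362 to 597 in E168d2neo/d2neo retinas, 565 to 777 in R90Wneo/Wneo and 426 to 536 in Crx-/-, against 662 to 719 in WT. The brightest of that list were Pvalb, which some retinal neurons also make, at a mean log2 signal of 7.36 in E168d2neo/d2neo retinas, 8.25 in R90Wneo/Wneo and 7.16 in Crx-/-, against 8.41 in WT (adjusted p = 0.0519 in Crx-/-, limma), and Acta1 (skeletal actin) at 6.81, 7.21 and 7.19, against 7.28. Actn3 and Tnni2, specific to fast fibres, were undetected on all arrays of R90Wneo/Wneo, Crx-/- and WT. The heart muscle genes summed to 267 to 372 in E168d2neo/d2neo retinas, 269 to 394 in R90Wneo/Wneo and 216 to 272 in Crx-/-, against 342 to 389 in WT, led by Actc1 (cardiac actin) and Nppa (atrial natriuretic peptide). Myh6 was detected on only 1 array, of WT, where its mean was near the floor (4.64 ± 1.10, SD). The skeletal muscle sums, in which Pvalb was the brightest gene, lay below WT in E168d2neo/d2neo and Crx-/- and overlapped WT in R90Wneo/Wneo. The part of carried-over muscle in the Rpl3l change was not tested.

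The probes whose signal followed Rpl3l most closely over the 12 arrays were those of Mreg (Pearson r = 0.973), Ipmk (0.973 and 0.955 for its 2 probes), Tmem229b (0.967), Nme5 (0.967), Lcn2 (0.961), Ccdc113 (0.961), Timm44 (0.960), Myrip (0.957) and 1 probe that the platform table does not name (0.961). Mreg encodes melanoregulin, Ipmk an inositol polyphosphate kinase, Lcn2 lipocalin, and Myrip a myosin and Rab adaptor. All 10 probes had lower means in every mutant than in WT, and since the 12 arrays fall into 4 genotypes, the r values largely describe the step between WT and the mutants. The most different of the members from Rpl3l was Rps27l (r = -0.810).

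On chromosome 17 the next genes on 1 side of Rpl3l are Ndufb10, a subunit of respiratory complex I, and Rps2, itself a member, and on the other side Msrb1, a methionine sulfoxide reductase. Rps2, which lies near the messenger entry of the small subunit, differed from WT by -0.0014 in E168d2neo/d2neo retinas, by 0.12 in those of R90Wneo/Wneo and by 0.16 in those of Crx-/- (adjusted p from 0.547 to 1 by limma). Ndufb10 had -0.13, 0.14 and 0.56 and Msrb1 -0.75, -0.49 and -0.84 in the same order, and neither passed the test (adjusted p from 0.153 to 0.973 by limma).

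Across all members, Rpl3l and Rpl17 were past the test as lower in E168d2neo/d2neo relative to WT, where limma called 3.68% of all 24311 tested probes lower. Rpl17 entered the test only through WT replicate 3, the 1 array on which its probe was detected, so its place in these counts follows from the filter and only Rpl3l is described as having fallen. At a change of at least 2-fold only Rpl3l remained, against 2.24% of probes. By limma 0 members were higher, against 2.88% of probes. Before adjustment 4 members were higher at p under 0.05, against 11.3% of probes. Significance analysis of microarrays called 0 higher, as did limma with a trend in the prior variance. Mean scaling, a floor of 64, no filter and the replicate block each called 1 higher, against 4.78%, 3.04%, 1.27% and 2.5% of probes. Among probes detected on all arrays 2 were higher, against 8.35% of probes. In R90Wneo/Wneo Rpl3l and Rpl17 were past the test as lower, against 0.847% of probes, with only Rpl3l past 2-fold (0.65% of probes). There 0 members were higher (0.494% of probes), also before adjustment (5.74% of probes), by significance analysis of microarrays or by limma with a trend. In Crx-/- the same 2 were lower, against 3.87% of probes, Rpl3l alone past 2-fold (2.34% of probes), and Rplp0 was higher, against 3.14% of probes.

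With the mutants averaged, Rpl3l and Rpl17 were lower than in WT (3.83% of probes lower), Rpl3l alone past 2-fold (1.81% of probes). By limma 0 members were higher (3.13% of probes), though 7 were at an unadjusted p under 0.05 (11% of probes). Limma with a trend called Rps27l higher, against 4.88% of probes. Mean scaling, a floor of 64, no filter and the replicate block each called 1 member higher, against 4.64%, 3.23%, 1.44% and 2.78% of probes. Among probes detected on all arrays 3 were higher, against 9.24% of probes. The test over the 4 genotypes called Rpl3l and Rpl17, against 5.54% of probes. Between mutants, limma called 0 members in E168d2neo/d2neo against Crx-/- (0.691% of probes in either direction, and before adjustment 0 members against 10.4% of probes), 0 in R90Wneo/Wneo against Crx-/- (0.502% of probes, and before adjustment 4 members lower against 4.98% of probes) and 0 in E168d2neo/d2neo against R90Wneo/Wneo (0.654% of probes, and before adjustment 1 member higher against 4.17% of probes). Limma with a trend also called 0 members in each of these, and significance analysis of microarrays was not run on them.

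These counts also depend on 1 array. Without E168d2neo/d2neo replicate 1, limma called 12 members higher in E168d2neo/d2neo (Rpl12, Rpl26, Rpl27a, Rpl32, Rpl36a, Rpl39, Rpl4, Rpl7a, Rps10, Rps12, Rps24 and Rps3), where 7.13% of tested probes were called higher. In Crx-/- 7 members were then higher (Rpl32, Rpl7a, Rplp0, Rps12, Rps19, Rps24 and Rps27l), against 5.62% of probes, and in the mean of the mutants 8, against 6.54%. Rpl3l and Rpl17 stayed the only members lower. The names in this paragraph were chosen after their values were seen. With both dim arrays left out, an alternative chosen after seeing the data, 10 members were higher in E168d2neo/d2neo, against 6.01% of probes, and 3 in the mean of the mutants, against 4.18%.

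Rpl17 encodes a large subunit protein at the exit of the peptide tunnel, and its probe was near background. It was detected on 1 array, WT replicate 3, at a detection p-value of 0.0459. Its log2 signal was 4, the floor, on all E168d2neo/d2neo and R90Wneo/Wneo arrays, 4, 4.31 and 4 in Crx-/-, and 5.28, 4.51 and 4.97 in WT. WT was itself undetected on 2 of 3 arrays, so no fold is given. Its adjusted p was 0.0147 for E168d2neo/d2neo, 0.0401 for R90Wneo/Wneo and 0.0252 for Crx-/- by limma, and this call was lost in 8, 19 and 9 of 22 alternatives in that order, mean scaling, median scaling and cyclic loess among them in every mutant. With the floor at 64 in place of 16 its change was 0. Without WT replicate 3 the probe was undetected throughout and was not tested.

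The stalk proteins form the flexible arm of the large subunit that binds elongation factors. Rplp0, its base, had log2 signals of 6.96, 7.14 and 6.99 in E168d2neo/d2neo retinas, 6.70, 6.88 and 6.31 in R90Wneo/Wneo and 7.004, 7.40 and 6.85 in Crx-/-, against 6.33, 6.53 and 6.27 in WT. E168d2neo/d2neo and Crx-/- lay above WT without overlap, and R90Wneo/Wneo overlapped it. By limma Rplp0 rose by 0.71 ± 0.19 in Crx-/- (SE, adjusted p = 0.0498). Its change of 0.65 ± 0.19 in E168d2neo/d2neo did not pass (adjusted p = 0.0707), nor did that of 0.25 ± 0.19 in R90Wneo/Wneo (adjusted p = 0.684). The Crx-/- call is at the threshold and was lost in 16 of 24 alternatives. The difference of R90Wneo/Wneo from Crx-/- was -0.46 (95% interval -0.88 to -0.04, adjusted p = 0.425 by limma).

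Rplp1 and Rplp2, which pair on Rplp0, did not pass the test in any mutant. Rplp1 had 15.20, 14.90 and 14.90 in E168d2neo/d2neo retinas, 15.07, 15.03 and 14.90 in R90Wneo/Wneo and 15.12, 15.12 and 15.07 in Crx-/-, against 15.07, 14.93 and 14.93 in WT (log2 signal). Rplp2 differed from WT by 0.32 in E168d2neo/d2neo retinas, by 0.23 in R90Wneo/Wneo and by 0.53 in Crx-/-, with adjusted p from 0.263 to 0.814 by limma.

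The other paralogs among the members are Rps27l, a relative of Rps27 known as a p53 target, and Rps4l, a relative of Rps4x. Rps27l had log2 signals of 11.24, 11.77 and 11.42 in E168d2neo/d2neo retinas, 11.53, 11.30 and 11.37 in R90Wneo/Wneo and 11.70, 11.82 and 11.62 in Crx-/-, against 11.22, 11.07 and 11.08 in WT. All 9 mutant arrays were above all WT arrays. The change in Crx-/- was 0.59 ± 0.16 (SE, adjusted p = 0.0533, limma), and E168d2neo/d2neo (adjusted p = 0.241) and R90Wneo/Wneo (0.584) did not pass either. Rps4l had 10.91, 10.21 and 10.60 in E168d2neo/d2neo retinas, 9.99, 10.22 and 9.97 in R90Wneo/Wneo and 10.35, 10.30 and 10.22 in Crx-/-, against 10.50, 10.47 and 10.46 in WT, and no comparison passed.

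Apart from Rpl3l and Rpl17, the 51 members were detected on all 12 arrays and changed little. Their differences from WT ran from -0.26 (Rps6) to 0.70 (Rps25) in E168d2neo/d2neo, from -0.42 (Rps4l) to 0.31 (Rps25) in R90Wneo/Wneo and from -0.19 (Rpl13a) to 0.71 (Rplp0) in Crx-/-, with a median SE of 0.16. Rps25, a small subunit protein used by some viral internal ribosome entry sites, had a large spread in every genotype (SD 0.45, 0.48 and 0.47 in E168d2neo/d2neo, R90Wneo/Wneo and Crx-/-, 0.49 in WT) and did not pass. Rps6, the small subunit protein phosphorylated by S6 kinases, had 12.98, 12.94 and 12.85 in E168d2neo/d2neo, all below WT at 13.24, 13.15 and 13.15, at an adjusted p of 0.298 by limma.

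The brightest probes of the members were those of Rpl23, Rplp1, Rpl41 and Rps2, with means of 14.67 to 15.40 on the log2 scale. Rpl23, a large subunit protein that can bind MDM2, averaged 15.34 ± 0.20 in E168d2neo/d2neo retinas, 15.45 ± 0.04 in R90Wneo/Wneo and 15.45 ± 0.10 in Crx-/-, against 15.37 ± 0.06 in WT (SD, n = 3 each). Rpl41, the smallest ribosomal protein, averaged 14.75 ± 0.26, 14.93 ± 0.05 and 14.85 ± 0.08 in the mutants in the same order, against 14.79 ± 0.16 in WT. Neither differed beyond its spread. Brightness also depends on the probe and quantile normalization maps these top ranks onto few values, so levels are not compared between genes. Among the dimmest, Rpl21 of the large subunit averaged 7.55 ± 0.27 in E168d2neo/d2neo retinas, 7.43 ± 0.18 in R90Wneo/Wneo and 7.85 ± 0.17 in Crx-/-, against 7.70 ± 0.09 in WT, and did not pass.

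**Figure D2:**
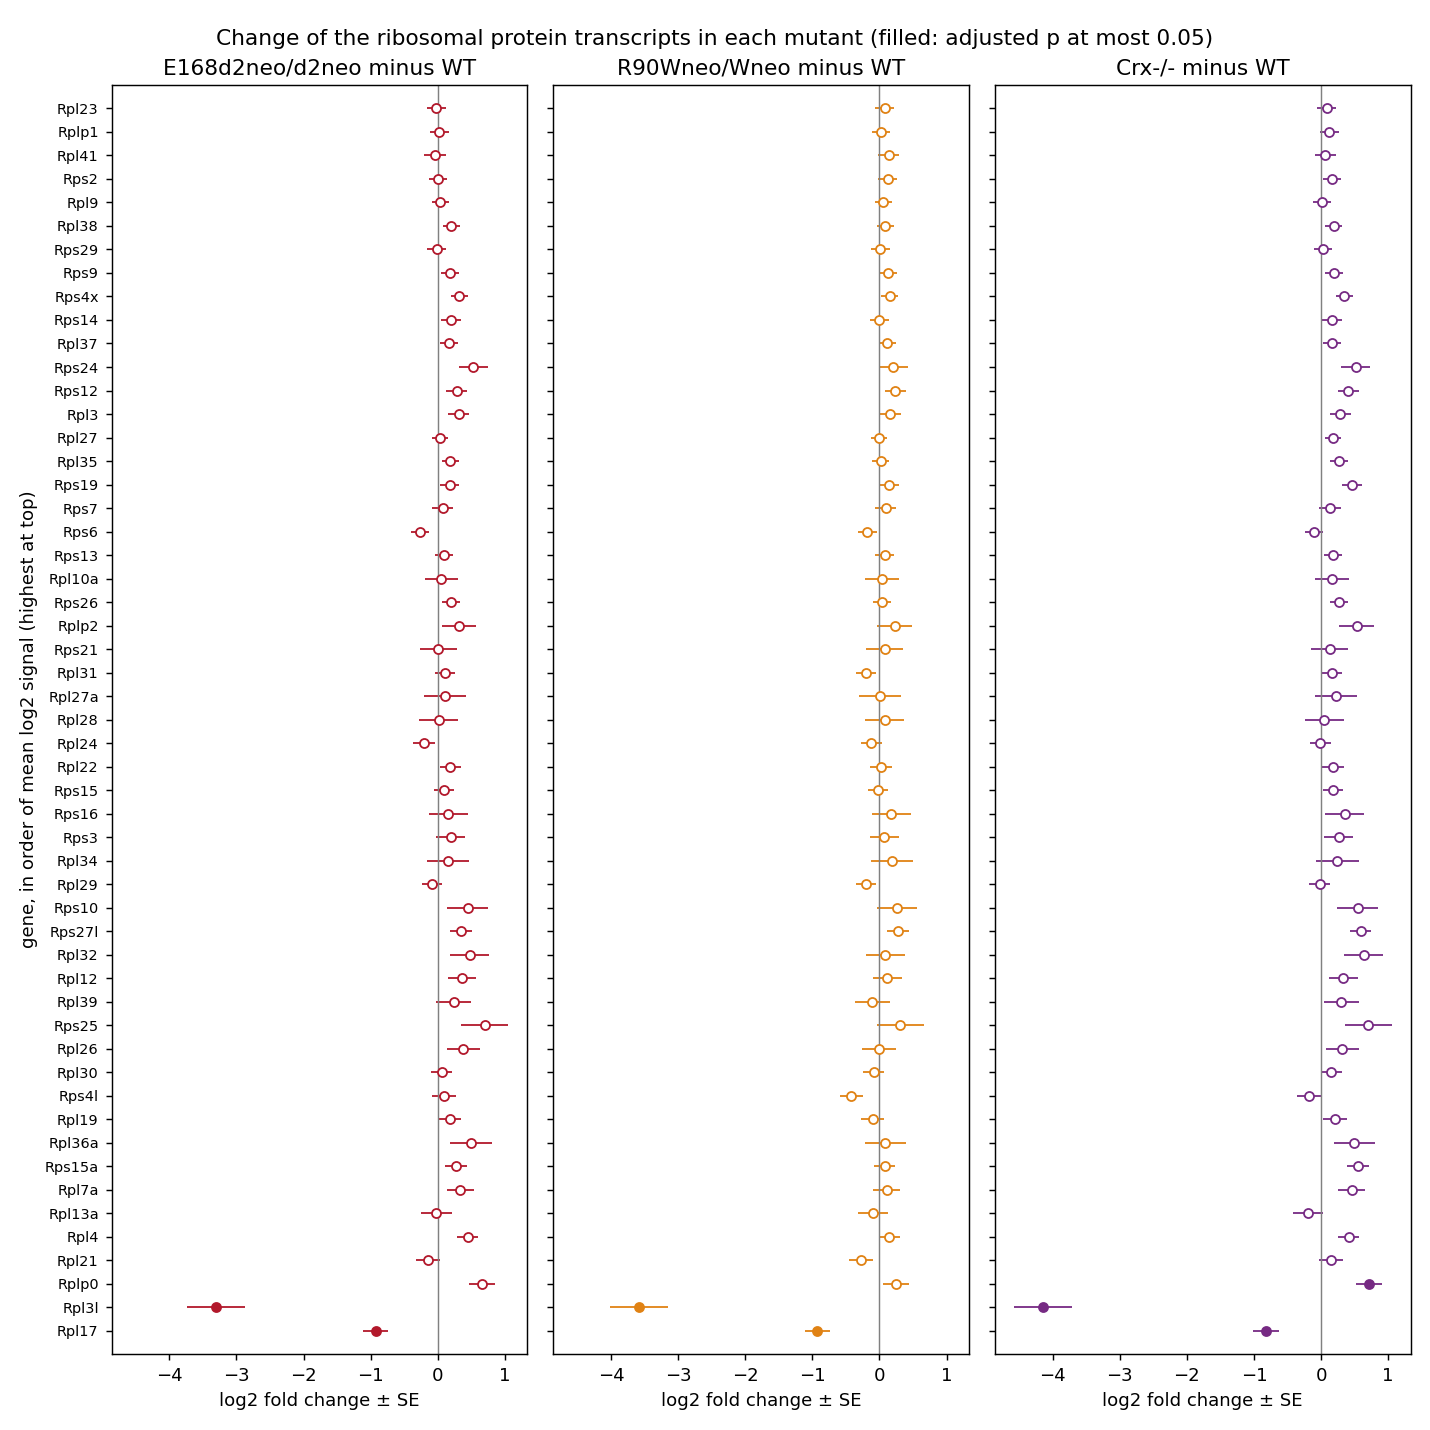
Log2 fold change of each of the 53 members against WT, with its SE, in E168d2neo/d2neo, R90Wneo/Wneo and Crx-/-, in order of mean signal from top to bottom. Filled points passed an adjusted p of 0.05, which Rpl3l and Rpl17 did in every mutant and Rplp0 in Crx-/-, and the other points lie between -0.42 and 0.70.

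Below the threshold, most members of Crx-/- lay slightly above WT. The 53 members had a median change of 0.16 for E168d2neo/d2neo, 0.08 for R90Wneo/Wneo and 0.19 for Crx-/-, against 0.01 over all tested probes in each. Changes were above 0 for 42, 37 and 46 members in that order (79.2%, 69.8% and 86.8%), against 51.3%, 51.5% and 51.5% of tested probes. The Crx-/- median stayed between 0.14 and 0.23 under every alternative, whereas with median scaling of the arrays it was -0.07 in E168d2neo/d2neo retinas, -0.12 in R90Wneo/Wneo and -0.03 in the mean of the mutants, and with cyclic loess it was -0.0046 in R90Wneo/Wneo. The direction in E168d2neo/d2neo and R90Wneo/Wneo therefore changed with the scaling. All comparisons with WT share the same WT arrays.

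In Crx-/-, 28 of 53 members had all arrays above all WT arrays, among them Rps4x, Rps19, Rps15a, Rps24, Rpl7a and Rpl32, against 15.8% of tested probes and 23.3% of the 12271 probes detected on all 12 arrays. In the opposite direction 3 members (Rpl17, Rpl3l and Rps4l) lay below all WT arrays, against 13.9% of probes. In E168d2neo/d2neo 9 members were above all WT arrays, against 11.2% of probes and 16.3% of those detected throughout, and 3 were below, against 11% of probes. In R90Wneo/Wneo 8 were above, against 9.52% and 13% of probes, and 4 below, against 8.5% of probes. The Crx-/- count was 16 with median scaling, where 14.8% of tested probes qualified. It was 27 with mean scaling and 26 with cyclic loess, which are given without the share of probes and are not read as an excess.

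Of the members in that group, the 4 that limma with a trend in the prior variance called are Rps27l, given above, and Rps4x, Rps19 and Rps15a. With the trend 4.91% of tested probes were called higher in Crx-/-. Rps4x, the X-linked small subunit protein, had 14.04, 14.01 and 14.01 in Crx-/-, against 13.69, 13.67 and 13.66 in WT, at an adjusted p of 0.127 by limma. Rps19, altered in Diamond-Blackfan anemia in humans, had 13.69, 13.63 and 13.53 in Crx-/-, against 13.17, 13.13 and 13.17 in WT, at an adjusted p of 0.0906 by limma. Both sets of arrays are well apart, but the changes of 0.35 and 0.46 did not pass. Rps15a, of the small subunit, had 10.22, 10.31 and 10.08 in Crx-/-, against 9.79, 9.64 and 9.53 in WT, at an adjusted p of 0.0679 by limma. Rplp0 was not called with the trend. Other alternatives called further members of the group, Rpl27 and Rpl35 with a floor of 64 and Rpl32, Rpl4, Rpl7a and Rps24 with Crx-/- and WT fitted alone. In all, 7 members were higher with that floor, against 3.48% of probes, and 8 with the 2 groups alone, against 4.01% of probes.

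By subunit, the median change in Crx-/- was 0.18 over 28 large subunit genes and 0.27 over 19 small subunit genes, with 24 and 18 of them above 0, and 0.53 over the 3 stalk genes. In E168d2neo/d2neo these medians were 0.13, 0.18 and 0.32, and in R90Wneo/Wneo 0.03, 0.09 and 0.23. No test between subunits was made.

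The members together took 3.04%, 3.64% and 3.51% of the summed array signal in E168d2neo/d2neo retinas, 3.28%, 3.31% and 3.26% in R90Wneo/Wneo and 3.61%, 3.51% and 3.47% in Crx-/-, against 3.04%, 3.17% and 3.15% in WT, after quantile normalization. Crx-/- and R90Wneo/Wneo lay above WT and E168d2neo/d2neo overlapped it. In the signal as deposited the shares were 3.31%, 3.56% and 3.35% in E168d2neo/d2neo retinas, 3.32%, 3.42% and 3.27% in R90Wneo/Wneo and 3.81%, 3.93% and 3.52% in Crx-/-, against 3.58%, 3.39% and 3.39% in WT. There every mutant overlapped WT, so the separation of the shares depends on the normalization.

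**Figure D3:**
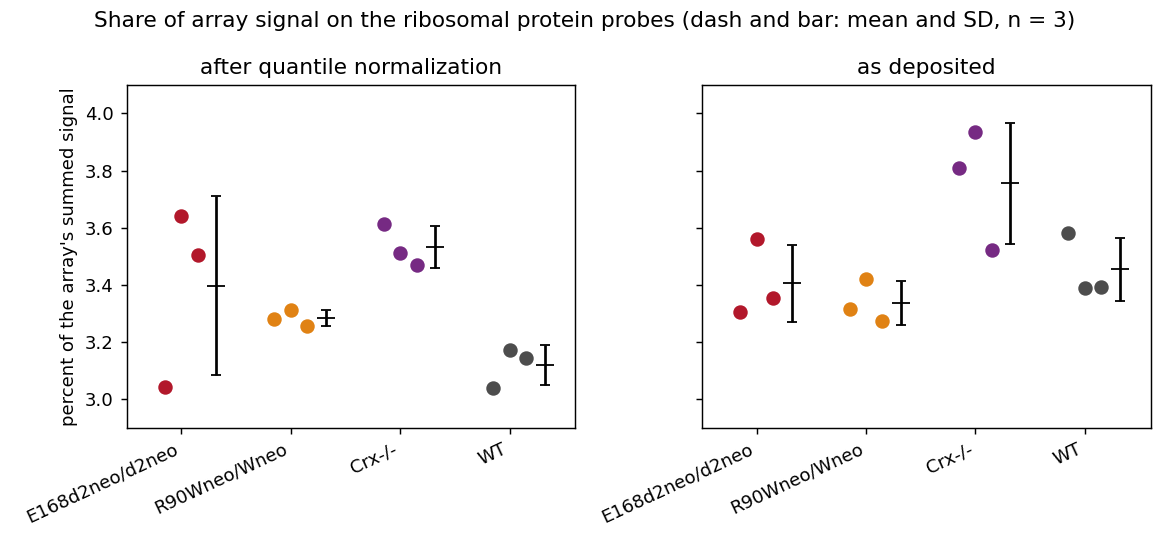
Percent of each array's summed signal on the 53 member probes, by genotype, after quantile normalization (left) and as deposited (right), with the mean and SD of 3 arrays and an axis that starts above 0. Crx-/- lies at 3.47% to 3.61% on the left, above WT at 3.04% to 3.17%, and on the right at 3.52% to 3.93%, where it overlaps WT at 3.39% to 3.58%.

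E168d2neo/d2neo replicate 1 stood apart in these transcripts. Of the 51 members detected throughout, 40 were lower on it than the mean of replicates 2 and 3, 10 of them by at least 1 log2 unit, which 5.27% of the 12271 probes detected on all arrays reached. The differences ran from -1.43 (Rpl27a) to 0.50 (Rps4l) with a median of -0.36, while the median over those probes was 0.08. On WT replicate 1 they ran from -0.71 (Rpl34) to 0.36 (Rpl19), with 27 members lower and 24 higher. Members had a median SD of 0.26 for E168d2neo/d2neo, 0.10 for R90Wneo/Wneo and 0.08 for Crx-/-, against 0.11 in WT. What sets that array apart was not tested.

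**Figure D4:**
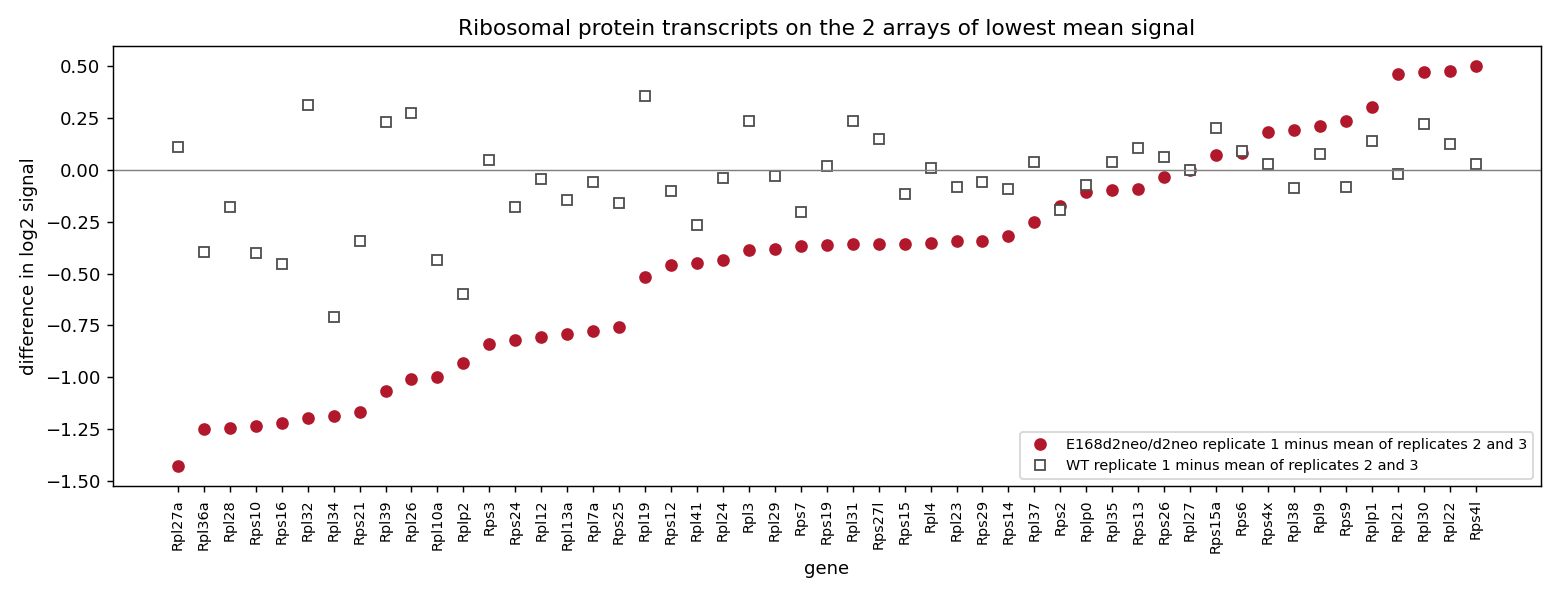
Difference in log2 signal of E168d2neo/d2neo replicate 1 (filled circles) and WT replicate 1 (open squares) from the mean of the other arrays of its genotype, for the 51 members detected on all 12 arrays, ordered by the circles. The circles reach down to -1.43 for Rpl27a and up to 0.50 for Rps4l, and the squares stay between -0.71 and 0.36.

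Probes of the same gene did not always move alike. There were 16 members with more than 1 detected probe, and 13 with more than 1 probe detected on all arrays. In 6 of these 13, the probes lay on both sides of 0 on E168d2neo/d2neo replicate 1 relative to its fellow arrays. For Rpl30, of the large subunit, 1 probe differed by 0.47 and the other by -0.84, and for Rps9, of the small subunit, 1 differed by 0.24 and the other by -0.91. Rpl27a, of the large subunit, was the 1 gene with another probe past the test, at 0.89 in E168d2neo/d2neo (adjusted p = 0.0403, limma), while its brightest probe had 0.11 and its remaining probe -0.29.

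Genes around the ribosome were taken in 5 lists. Among all tested probes limma called 3.68% lower and 2.88% higher in E168d2neo/d2neo. These shares were 0.847% and 0.494% in R90Wneo/Wneo and 3.87% and 3.14% in Crx-/-. Of 5 detected relatives outside the definition, led by Rpl36al and the nucleolar Rsl1d1, limma called 0 in any mutant, with 1 higher in E168d2neo/d2neo and 1 in Crx-/- at an unadjusted p under 0.05. Among 12 elongation factor genes Eef2, which moves the ribosome along the messenger, rose in Crx-/- by 0.65 ± 0.16 (SE, adjusted p = 0.0381, limma), with means of 12.05 ± 0.09 in Crx-/- and 11.41 ± 0.09 in WT (SD, n = 3 each). Among 26 initiation factor genes Eif3a, the largest subunit of the scaffold factor, rose in E168d2neo/d2neo by 1.08 ± 0.27 (adjusted p = 0.0377), and Eif5, which triggers GTP hydrolysis at the start codon, rose in Crx-/- by 0.73 ± 0.14 (adjusted p = 0.0109). Over the initiation factors the median change was 0.17 for E168d2neo/d2neo, 0.08 for R90Wneo/Wneo and 0.26 for Crx-/-.

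Of 37 ribosome biogenesis genes, Npm1 (nucleophosmin) rose in E168d2neo/d2neo by 0.57 ± 0.15 (SE, adjusted p = 0.0433, limma). In Crx-/- Nmd3, the export adaptor of the large subunit, rose by 0.61 ± 0.15 (adjusted p = 0.0317), and Nat10, which acetylates ribosomal RNA, fell by 1.34 on the log2 scale (adjusted p = 0.0233), from a dim probe with a mean of 4.57 in Crx-/- and 5.91 in WT. Limma called 0 of the 13 genes of growth signalling to translation, led by Tsc2 and Mlst8, while at an unadjusted p under 0.05 E168d2neo/d2neo had 1 lower with 1 higher, and Crx-/- had 2 lower with 1 higher. In R90Wneo/Wneo none of the genes of these 5 lists passed.

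The mitochondrial ribosomal proteins, which translate mitochondrial messengers, are a separate set. Of 72 detected genes, 4 fell and 1 rose in E168d2neo/d2neo (3.68% and 2.88% of all tested probes), limma called 0 in R90Wneo/Wneo (0.847% and 0.494% of probes, and at an unadjusted p under 0.05, 3 genes lower with 1 higher), and 2 fell and 1 rose in Crx-/- (3.87% and 3.14% of probes). Their median change was -0.08 for E168d2neo/d2neo, -0.05 for R90Wneo/Wneo and -0.08 for Crx-/-. Mrpl49 fell by 1.22 in E168d2neo/d2neo and by 1.08 in Crx-/- on the log2 scale (adjusted p = 0.000893 and 0.0022, limma), with means of 11.52 ± 0.27 in E168d2neo/d2neo and 11.65 ± 0.06 in Crx-/-, against 12.73 ± 0.10 in WT (SD, n = 3 each). In E168d2neo/d2neo Mrpl2 fell by 0.85 and in Crx-/- Mrpl57 fell by 1.24, while Mrps35 rose by 0.85 in E168d2neo/d2neo and 0.80 in Crx-/-. No test of the difference between the cytosolic and mitochondrial sets was made.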

How the data were processed

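PolyA RNA from P10 retinas was hybridised by the authors to Illumina MouseWG-6 v2 BeadChips. The deposited table holds, for 45281 probes, a background-subtracted signal intensity per array that is not normalized between arrays, with a detection p-value per probe and array, also deposited, that sets the probe against negative controls. Their GenomeStudio version is not given in the sources used here. A second deposited table of values was not used: each column is the signal times 1 factor per array (0.753 to 1.69), and 0 identifiers stand beside their own values.

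Signals were quantile-normalized (limma 3.58.1, R 4.3.3), raised to a floor of 16 and taken to log2. Probes detected (detection p under 0.05) on at least 1 array were tested, 24311 in all. Of these 4252 had no gene symbol in the platform table, which gives 1 symbol for 34885 probes and several for 18. A linear model fitted to all 12 arrays, with a mean per genotype and no other term, gave 7 comparisons and a test over the 4 genotypes, with empirical Bayes moderation (3.07 prior degrees of freedom) and Benjamini-Hochberg adjustment over all tested probes. The code was tested on simulated data. With 3 arrays against 3, an exact two-sided permutation test cannot give a p under 0.1, so none is given. P-values set a difference between genotypes against the moderated spread between pools of the same genotype. The number of arrays limits the precision.

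The members, gene lists and tests were chosen with earlier results of these data known. Named are Rpl3l and Rpl3, members past the test or 2-fold, the 4 brightest and 4 dimmest members, those not detected on all arrays, those whose probes disagree on a passed change, up to 4 called or else the brightest genes of each list, and the 10 probes most like Rpl3l. Replicate numbers follow the order of deposit and pair no arrays. Alternatives covered normalization, floor, filter, probe choice, arrays fitted, the replicate block and test. A chip block was not run because the headers name no chip.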

Additional observations from a re-analysis of the deposited data

Results flagged for a closer look

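Rpl31, of the large subunit, had all arrays of R90Wneo/Wneo below and all arrays of Crx-/- above the WT mean, and the mean changes of R90Wneo/Wneo and Crx-/- differed by -0.37 on the log2 scale (adjusted p = 0.411, limma). Rpl19, of the large subunit, showed the same opposite movement at -0.31 (adjusted p = 0.588, limma). Neither difference passed the test, and both changes use the same WT arrays.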

How the results depend on the processing

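Rpl3l stayed lower in each mutant than in WT, and in the mean of the mutants, under every alternative that tested it. It was not tested among probes detected on all 12 arrays, where counts past 2-fold were 0 in every mutant and in their mean. The number of members past the test in E168d2neo/d2neo was 2, and 1 with median scaling, cyclic loess, the 2 groups fitted alone and significance analysis of microarrays. That 1 was lower, against 3.91%, 3.6%, 1.9% and 2.15% of tested probes in that order. For R90Wneo/Wneo, 2 became 1 with mean scaling, median scaling, loess, a floor of 64, no filter and a variance trend, and 0 among probes detected on all arrays, with 2 groups alone and with significance analysis of microarrays, the last 2 of which also left 0 past 2-fold. Where 1 was left it was lower, against 0.364% to 1.42% of probes. Where 0 were left, 2.24%, 0.173% and 0.0782% of probes were lower in that order. For Crx-/-, 3 became 1 with median scaling, loess and significance analysis of microarrays, 5 among probes detected on all arrays, 6 with a trend, 8 with a floor of 64 and 9 with 2 groups alone. The 1 was lower, against 3.8%, 4.33% and 3.66% of probes. Of the larger counts 5, 4, 7 and 8 members were higher, against 9.25%, 4.91%, 3.48% and 4.01% of probes in that order. The test over 4 genotypes gave 1 with mean scaling, median scaling, loess and probes detected on all arrays, and 4 with a trend. For this test the share of all tested probes was computed only in the main setting (5.54%). Its counts in the alternatives, here and below, are therefore not read as an excess. A floor of 64 called 1 member, Rpl27, lower in R90Wneo/Wneo than in Crx-/-, against 0.329% of probes.

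With the 2 dimmest arrays left out, chosen after seeing the data, counts were 12 in E168d2neo/d2neo retinas, 1 in R90Wneo/Wneo, 5 in the mean of the mutants, 2 (Rpl26 and Rpl32) between E168d2neo/d2neo and R90Wneo/Wneo, and 6 over the genotypes, and 37 members of E168d2neo/d2neo exceeded WT on all arrays, as did 29.4% of tested probes. Probes called higher were then 6.01% in E168d2neo/d2neo, 4.18% in the mean and 0.999% in E168d2neo/d2neo against R90Wneo/Wneo. In R90Wneo/Wneo 0.861% of probes were called lower. Members above all WT arrays numbered 5 in E168d2neo/d2neo (15.5% of tested probes) and 4 in R90Wneo/Wneo (13.7%) with mean scaling, 2 (9.77%) and 0 (7.37%) with median scaling, with 16 in Crx-/- (14.8%), and 5 (12.5%) and 1 (8.06%) with loess. The median changes turned to -0.0688 in E168d2neo/d2neo retinas, -0.121 in R90Wneo/Wneo and -0.0263 in the mean with median scaling, which put all probes at -0.02, -0.03 and -0.01, and to -0.0046 in R90Wneo/Wneo with loess. Shares of signal were 3.22% in R90Wneo/Wneo, 3.62% in Crx-/- and 3.32% in WT with mean and with median scaling, and 3.24% in WT with loess. The cause of these shifts was not tested.

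Leaving out 1 array at a time gave 1 to 14 members past the test in E168d2neo/d2neo retinas, 1 to 2 in R90Wneo/Wneo, 1 to 9 in Crx-/-, 1 to 10 in the mean, 1 to 8 over the genotypes and 0 to 1 between E168d2neo/d2neo and R90Wneo/Wneo. The highest of each came without E168d2neo/d2neo replicate 1, apart from R90Wneo/Wneo where also WT replicate 2 left 2. Without E168d2neo/d2neo replicate 1, 7.13% of tested probes were called higher in E168d2neo/d2neo, 5.62% in Crx-/- and 6.54% in the mean. Rpl3l alone was called in E168d2neo/d2neo without its replicate 2 or 3 or WT replicate 3, in Crx-/- without its replicate 1 or 3 or WT replicate 1 or 3, and in the mean without WT replicate 3. Counts past 2-fold ran from 1 to 2, with 2, Rpl3l and Rpl17, when WT replicate 2 was left out. The share of signal ran from 3.29% to 3.57% in E168d2neo/d2neo retinas, 3.26% to 3.31% in R90Wneo/Wneo, 3.49% to 3.57% in Crx-/- and 3.09% to 3.15% in WT.

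Replicate numbers follow the order of deposit. Of 18 same-numbered pairs across genotypes, 6 had deviations correlated above 0.1 (r from -0.052 to 0.313), among them all 3 of E168d2neo/d2neo with WT (0.313, 0.177 and 0.101). Differently numbered pairs of E168d2neo/d2neo with WT ran from -0.293 (replicate 1 with WT replicate 2) to 0.29 (replicate 3 with WT replicate 2). With the replicate block, counts were 3 in E168d2neo/d2neo retinas, 1 in R90Wneo/Wneo, 3 in Crx-/-, 3 in the mean and 1 over the genotypes. Tested probes called lower and higher were then 3.4% and 2.5% in E168d2neo/d2neo and 0.732% and 0.407% in R90Wneo/Wneo. They were 3.66% and 2.92% in Crx-/- and 3.6% and 2.78% in the mean. A chip block was not run, since the headers name no chip. Signal near background limits Rpl3l in the mutants and Rpl17 on all arrays.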
